A study of Mus musculus with 6 samples.

Results

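The 10 genes described here encode core proteins of the BCL2 family, which decide whether a cell opens its outer mitochondrial membrane and dies by apoptosis. They were taken by name from the 54752 genes of a count table. Of the 10, 3 were pro-survival genes (Bcl2, Bcl2l1 and Mcl1), 2 were effector genes (Bax and Bak1) and 5 were BH3-only genes (Bid, Bcl2l11, Bmf, Bbc3 and Pmaip1). The levels are those of RNA from NIH/3T3, an established line of mouse embryonic fibroblasts, sequenced after removal of rRNA. There were 3 groups of 2 libraries, all treated for 72 h. The first received vehicle (PBS). The second received TGF-β1 at 1 ng/ml with DMSO (TGF-β1+DMSO), and the third TGF-β1 at 1 ng/ml with BI6727 at 5 μM (TGF-β1+BI6727). BI6727 inhibits the mitotic kinase PLK1. The comparison of TGF-β1+DMSO with vehicle therefore held DMSO as well as TGF-β1, and no group received BI6727 without TGF-β1. All cells were of 1 line, and nothing in the labels says that replicates were separate cultures, so p-values measure the spread between libraries, which may be technical.

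In healthy cells the pro-survival proteins hold the effectors and the BH3-only proteins in check. Stress raises or activates BH3-only proteins, which bind the groove of the pro-survival proteins, and some of which also bind the effectors directly. BAX and BAK1 then form pores in the outer mitochondrial membrane, cytochrome c is released, and caspases are activated. Fibroblasts that become myofibroblasts under TGF-β are known to depend on this balance for their persistence or their removal. Much of the control of the family lies in protein stability, phosphorylation and location, which RNA levels do not show.

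The feature that unites the family is the BH3 motif, a short helix that fits the groove of a pro-survival partner. Its core is a leucine followed, after 3 residues, by glycine or alanine and then aspartate. The coding sequence of this core, with 4 codons before it and 3 after it, is shown for 4 BH3-only genes, since the differences between groups lay mainly in that class. The sequences were read 5′ to 3′ on the coding strand from the Gencode M21 transcripts of GRCm38, the genome also called mm10. Capitals mark the leucine codon and the codons for glycine or alanine and aspartate. Each stretch lies within 1 coding exon.
Bmf, chr2:118545100-118545138, minus strand: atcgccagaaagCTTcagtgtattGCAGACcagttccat
Bbc3, chr7:16313761-16313799, plus strand: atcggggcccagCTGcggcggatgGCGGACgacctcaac
Bcl2l11, chr2:128147138-128147176, plus strand: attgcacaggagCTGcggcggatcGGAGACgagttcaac
Bid, chr6:120897289-120897327, minus strand: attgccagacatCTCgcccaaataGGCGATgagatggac
The core was found once in the coding sequence of 9 of the 10 genes and had 2 matches in Pmaip1. Among the 9, it held glycine in 7 and alanine in 2, Bmf and Bbc3.

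Library totals ranged from 18362378 to 24452153 counts. The DMSO replicates differed from each other more than the others did, with an SD over genes of the log2 difference between replicates of 0.377, against 0.163 for vehicle and 0.147 for BI6727. Acta2, the smooth muscle actin of myofibroblasts, rose with TGF-β1+DMSO (log2 fold change 2.30, adjusted p = 2.71e-05 by edgeR). All 6 fibroblast markers were present, but they did not move together. Col1a2, Pdgfrb and S100a4 were lower and Vim higher in all 4 TGF-β1 libraries than in vehicle. Col1a1 and Fn1 differed between the DMSO replicates, at 859 and 447 and at 2676 and 1104 normalized CPM. Among 8 markers of epithelial cells, leukocytes and endothelium, Adgre1 had no counts. Epcam, Cdh1, Krt8 and Ptprc were under 0.5 normalized CPM in every library. The 8 together summed to 4.15 and 5.73 normalized CPM in vehicle, 6.86 and 5.92 with TGF-β1+DMSO and 5.56 and 5.63 with TGF-β1+BI6727. The endothelial markers were higher in all 4 TGF-β1 libraries, Cdh5 at 0 and 0.50 in vehicle and 1.22 to 3.09 with TGF-β1, and Pecam1 at 0.208 and 0.228 in vehicle and 0.483 to 1.16 with TGF-β1. Cd68 was lower in them, at 3.43 and 4.50 in vehicle and 2.51 to 3.19 with TGF-β1. The part of these markers in the results was not tested. Plk1, the target of BI6727, had 98.7 and 105 normalized CPM in vehicle, 71.6 and 70.5 with TGF-β1+DMSO and 60.2 and 63.4 with TGF-β1+BI6727, under a 2-fold difference in each comparison. Cdkn2a, a p53 pathway gene whose locus NIH/3T3 cells are known to lack, had 0 counts in all 6 libraries.

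Levels of different genes were compared as TPM, the counts per exonic length scaled to a common sum. Vehicle cells expressed all 10 genes, over a wide range. Bax stood first at 208 ± 9.02 TPM (SD, n = 2), followed by Mcl1 at 109 ± 3.42 and Bak1 at 63.1 ± 4.92. Bcl2l1, which encodes BCL-XL, was at 47.7 ± 1.91. Among the BH3-only genes in vehicle, Bid was highest at 18.7 ± 0.47 TPM, then Bbc3, which encodes PUMA, at 15.6 ± 1.65. Bmf was at 5.87 ± 0.99, Bcl2l11, which encodes BIM, at 3.40 ± 0.28, and Pmaip1, which encodes NOXA, at 2.46 ± 0.46. Bcl2 itself was lowest at 2.03 ± 0.12 TPM. No neighbours in this order had overlapping replicates in vehicle. Thus the RNA of the pro-survival genes among these 10 was mainly Mcl1 and Bcl2l1, and only a small part was Bcl2.

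The first 6 places did not change order between the 3 groups, and the order changed among the low BH3-only genes. With TGF-β1+DMSO, Pmaip1 stood seventh at 9.93 ± 0.70 TPM, above Bcl2l11 at 3.59 ± 0.99. Bmf went to ninth place at 1.93 ± 0.72 TPM and overlapped Bcl2 at 1.89 ± 0.63. Bid at 20.5 ± 2.85 and Bbc3 at 19.4 ± 0.74 TPM overlapped as well. With TGF-β1+BI6727, Bmf was last at 1.14 ± 0.04 TPM, under Bcl2 at 1.76 ± 0.35, and Pmaip1 at 7.87 ± 0.84 stayed above Bcl2l11 at 5.44 ± 0.36.

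**Figure D1:**
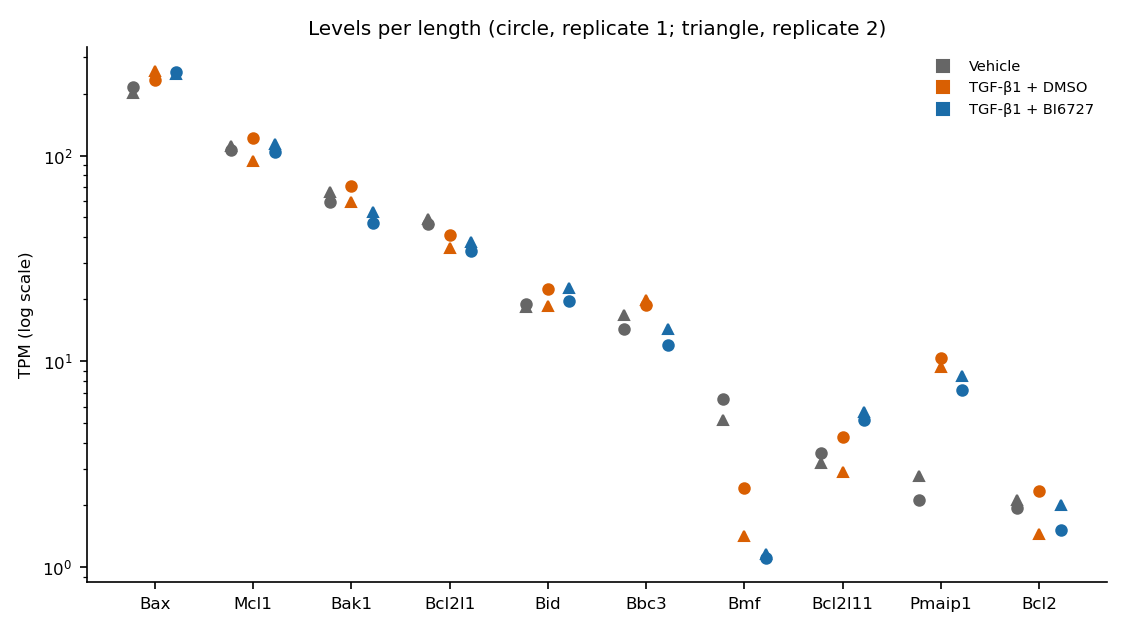
TPM of the 10 genes on a log axis, ordered by their mean in vehicle, with 1 point per library (circle, replicate 1; triangle, replicate 2) and colours for the 3 groups. Bax, Mcl1, Bak1 and Bcl2l1 lead in every group, whereas Pmaip1 lies under Bmf in vehicle and above it in both TGF-β1 groups.

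Differences between groups were tested with edgeR (quasi-likelihood test), fitting the 6 libraries together, over the 9518 genes with 10 CPM (counts relative to the library's total) or more in over 3 samples. All p-values are two-sided and adjusted over all genes tested unless said otherwise. A gene was called at an adjusted p below 0.01 and a fold change above 2. Of the 10 genes, 8 passed this filter. Bcl2 had 10 CPM in 1 library and Bmf in 2, so both are given from a second fit of the 14604 genes kept by edgeR's filterByExpr. Pmaip1 passed with the 4 TGF-β1 libraries and neither vehicle library. Values for single libraries are normalized CPM, replicate 1 first.

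TGF-β1+DMSO was compared with vehicle to ask what changes in fibroblasts driven toward myofibroblasts. Pmaip1 rose 4.42-fold, and Bmf fell to 0.354 of its vehicle level. No pro-survival or effector gene was called. Of all genes that passed the 10 CPM filter, 2.56% were called higher and 2.53% lower. Pmaip1 passed that filter through the TGF-β1 libraries where it was high, and Bmf, which fell, did not pass, so the count of members called in that fit says nothing of their direction. In the fit with filterByExpr, 1 of the 10 was called higher and 1 lower, against 2.75% and 3.23% of all genes. Fewer cells with a transcript and less of it per cell cannot be told apart in these bulk counts.

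Pmaip1, whose product NOXA chiefly neutralises MCL1, had 2.86 and 3.78 normalized CPM in vehicle. It had 13.5 and 16.0 with TGF-β1+DMSO and 10.7 and 11.8 with TGF-β1+BI6727. Both TGF-β1 groups lay wholly above vehicle, and the DMSO libraries above the BI6727 libraries. The vehicle values rested on 55 and 83 reads, and the DMSO values on 280 and 332. The log2 fold change of TGF-β1+DMSO over vehicle was 2.15 (SE 0.20, 95% interval 1.69 to 2.60, adjusted p = 0.000458). Without vehicle replicate 1 the log2 fold change was 1.96 and the call was lost (adjusted p = 0.0140). Without DMSO replicate 1 or 2 it was 2.25 and 2.03.

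Bmf, a BH3-only gene whose product binds dynein light chain and is linked to loss of cell attachment, had 17.5 and 13.9 normalized CPM in vehicle. It had 6.28 and 4.77 with TGF-β1+DMSO, and 3.23 in both BI6727 libraries. The 3 groups did not overlap, vehicle being highest and BI6727 lowest. With filterByExpr, the log2 fold change of TGF-β1+DMSO over vehicle was -1.50 (SE 0.21, 95% interval -1.99 to -1.01, adjusted p = 0.00196). Without vehicle replicate 1 it was -1.33 and without vehicle replicate 2 it was -1.65, and neither passed (adjusted p = 0.0360 and 0.0143). Without DMSO replicate 1 or 2 the log2 fold change was -1.72 and -1.29.

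The remaining BH3-only genes were not called. Bbc3, a p53 target, had 15.5 and 18.2 normalized CPM in vehicle and 19.7 and 27.1 with TGF-β1+DMSO. Its groups lay just apart, and replicate 2 of DMSO was well above replicate 1. Its log2 fold change was 0.47 (95% interval 0.02 to 0.92, adjusted p = 0.122). Without DMSO replicate 1 it was 0.67, under a fold of 2, and without DMSO replicate 2 it was 0.23. For Bid, which links death receptors to mitochondria when cleaved by caspase-8, the log2 fold change was 0.27 (95% interval -0.01 to 0.54, adjusted p = 0.140). For Bcl2l11, whose product can bind every pro-survival member, it was 0.19 (95% interval -0.15 to 0.54, adjusted p = 0.359).

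Among the effectors, Bax had 171 and 163 normalized CPM in vehicle and 179 and 259 with TGF-β1+DMSO. One DMSO library was near vehicle and the other far above it. The log2 fold change was 0.39 (95% interval 0.00 to 0.78, adjusted p = 0.131). Without DMSO replicate 1 it was 0.63, under a fold of 2, and without DMSO replicate 2 it was 0.11. Replicate 2 thus carried most of the difference. Bax has the shortest exonic length of the 10 genes, 1576 bases. After removal of the trend on gene length in each library, its log2 fold change was 0.26 (adjusted p = 0.0621). Bak1 had a log2 fold change of 0.18 (95% interval -0.08 to 0.44, adjusted p = 0.268).

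None of the pro-survival genes was called. Mcl1, which encodes a protein of very short life, had 184 and 195 normalized CPM in vehicle and 205 and 207 with TGF-β1+DMSO, a log2 fold change of 0.12 (95% interval -0.09 to 0.32, adjusted p = 0.366). Bcl2l1 had 108 and 115 in vehicle and 92.1 and 104 with TGF-β1+DMSO, and its log2 fold change was -0.18 (95% interval -0.43 to 0.06, adjusted p = 0.227). For Bcl2, in the fit with filterByExpr, it was 0.01 (95% interval -0.45 to 0.47, adjusted p = 0.982). The intervals of all 3 stayed within a 2-fold change.

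In normalized CPM, replicates of the 2 groups did not overlap in 9 of the 10 genes, 7 higher and 2 lower with TGF-β1+DMSO. All 8 members that passed the 10 CPM filter were without overlap, against 62.9% of all genes that passed it. Pmaip1 was among these members through the TGF-β1 libraries. In TPM, Mcl1, Bak1, Bid and Bcl2l11 overlapped as well as Bcl2, so these counts depended on the measure. The share of all genes was taken in normalized CPM only. The median log2 fold change of the 10 genes with filterByExpr was 0.20, and that of all genes in that fit was -0.01.

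**Figure D2:**
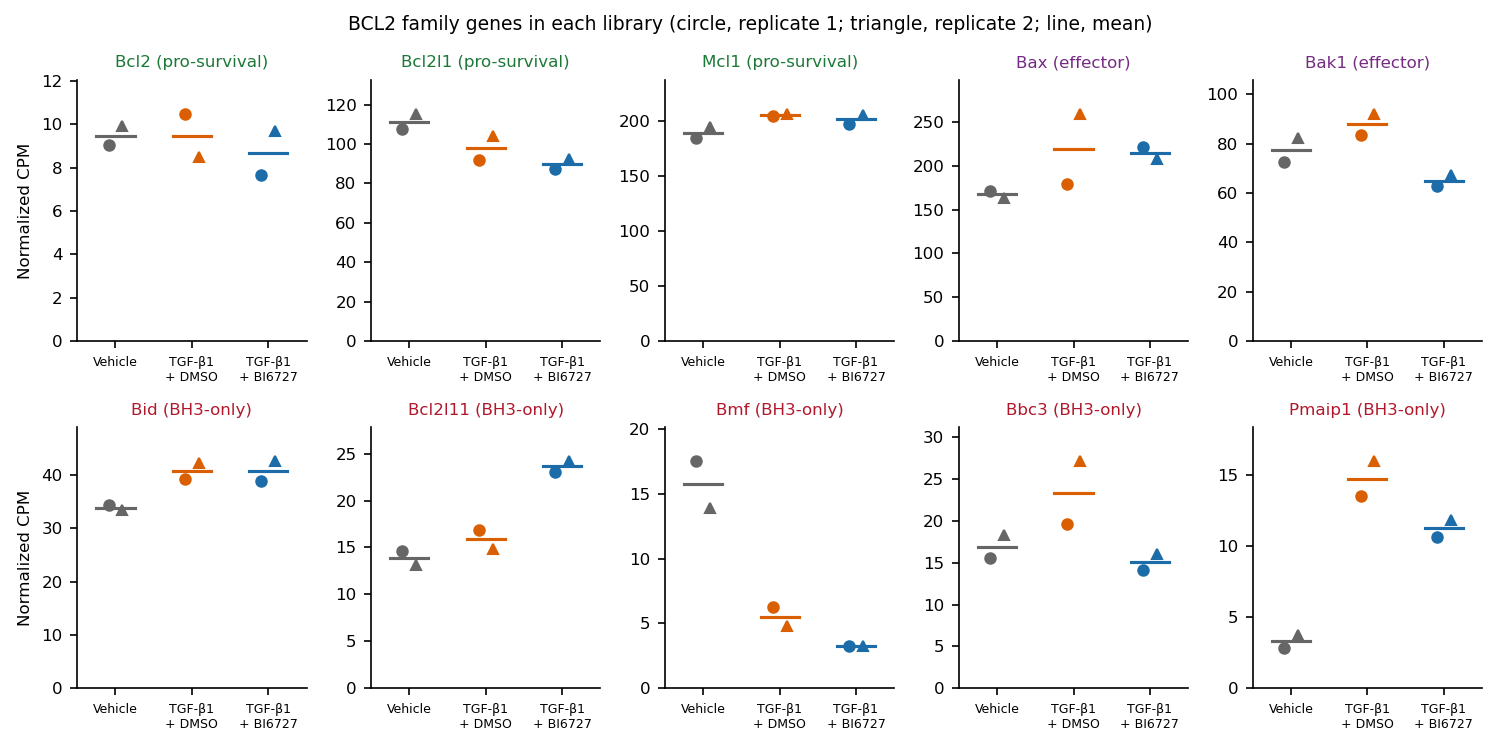
Normalized CPM of each gene in each library (circle, replicate 1; triangle, replicate 2; line, group mean), with a linear axis from 0 in each panel and the class of the gene in its title. Pmaip1 is higher and Bmf lower in all 4 TGF-β1 libraries than in vehicle, and Bcl2l11 is highest in the BI6727 libraries, at 23.1 and 24.2.

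TGF-β1+BI6727 was compared with TGF-β1+DMSO to ask what inhibition of PLK1 changes in cells that receive TGF-β1. No member was called, in a comparison in which no gene at all was called by edgeR among the 9518 (0% higher and 0% lower, also with filterByExpr). At an unadjusted p below 0.05 there were 636 genes, and DESeq2 called 11 genes lower and 0 higher. Of the 8 members tested in this fit, 3 had an unadjusted p below 0.05 (Bcl2l11, Bak1 and Bbc3). With filterByExpr, where Bmf was added, it was 4 of the 10, against 1041 of all 14604 genes. For 5 of the 10 the replicates did not overlap, Bcl2l11 being higher and Bak1, Bbc3, Pmaip1 and Bmf lower with BI6727. Of the 8 members that passed the 10 CPM filter, 4 were without overlap, against 34.1% of all genes that passed it.

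Bcl2l11 had 16.9 and 14.9 normalized CPM with TGF-β1+DMSO and 23.1 and 24.2 with TGF-β1+BI6727. Its vehicle libraries had 14.6 and 13.2, so the BI6727 libraries stood above the other 4. The log2 fold change of BI6727 over DMSO was 0.57 (SE 0.14, 95% interval 0.24 to 0.91, adjusted p = 0.580 over all genes). It was 0.67 without DMSO replicate 1 and 0.47 without DMSO replicate 2. Without BI6727 replicate 1 or 2 it was 0.61 and 0.54, and all of these were below a 2-fold change.

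Bak1, the effector that resides in the mitochondrial membrane, had 83.6 and 92.0 normalized CPM with TGF-β1+DMSO and 62.6 and 67.4 with TGF-β1+BI6727. Vehicle lay between, at 72.7 and 82.1. The log2 fold change of BI6727 over DMSO was -0.43 (SE 0.11, 95% interval -0.69 to -0.17, adjusted p = 0.583). It was -0.50 without DMSO replicate 1 and -0.37 without DMSO replicate 2. Without BI6727 replicate 1 or 2 it was -0.38 and -0.48. The other effector, Bax, had 222 and 207 with BI6727, between its DMSO values, and a log2 fold change of -0.03 (95% interval -0.42 to 0.36, adjusted p = 0.973). Its sign depended on the library left out, with -0.27 without DMSO replicate 1 and 0.24 without DMSO replicate 2. Without BI6727 replicate 1 or 2 it was -0.08 and 0.02.

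Bbc3 had 14.1 and 16.1 normalized CPM with TGF-β1+BI6727, overlapping its vehicle values and under both DMSO values. The log2 fold change was -0.63 (SE 0.19, 95% interval -1.08 to -0.17, adjusted p = 0.659). It moved between -0.84 without DMSO replicate 1 and -0.39 without DMSO replicate 2. Without BI6727 replicate 1 or 2 it was -0.54 and -0.72. For Pmaip1 the log2 fold change of BI6727 over DMSO was -0.39 (95% interval -0.80 to 0.02, adjusted p = 0.745). For Bmf, with filterByExpr, it was -0.77 (95% interval -1.30 to -0.23, adjusted p = 0.571). It was -0.54 without DMSO replicate 1 and -0.97 without DMSO replicate 2. No BH3-only gene met both thresholds with either DMSO library left out.

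Bid did not separate the 2 groups. It had 39.3 and 42.1 normalized CPM with DMSO and 38.8 and 42.5 with BI6727, and a log2 fold change of 0.00 (95% interval -0.27 to 0.27, adjusted p = 0.9998). Bcl2l1 (log2 fold change -0.13, 95% interval -0.37 to 0.11), Mcl1 (-0.03, -0.23 to 0.18) and Bcl2 (-0.11, -0.58 to 0.35, with filterByExpr) overlapped between the groups too. With filterByExpr, the median log2 fold change of the 10 genes was -0.12, and that of all genes -0.0012.

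**Figure D3:**
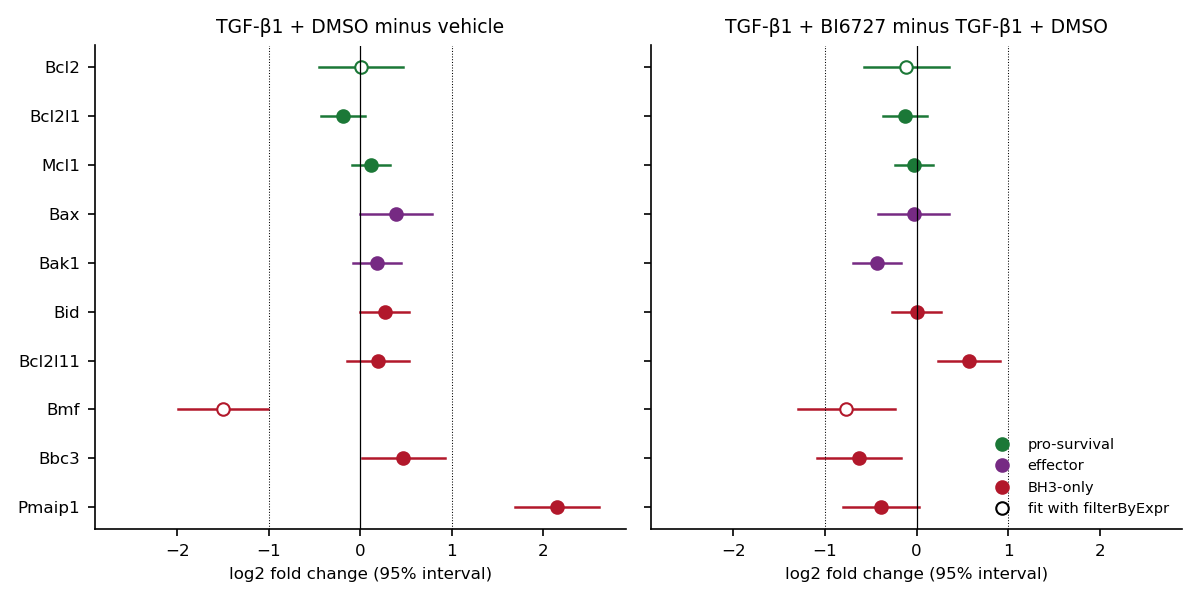
Log2 fold changes with 95% intervals of the 10 genes for TGF-β1+DMSO minus vehicle (left) and TGF-β1+BI6727 minus TGF-β1+DMSO (right), with dotted lines at a 2-fold change, colours for the 3 classes and open symbols for genes taken from the fit with filterByExpr. On the left Pmaip1 and Bmf lie beyond the dotted lines, and on the right no estimate does.

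TGF-β1+BI6727 was also set against vehicle, a comparison that shares its vehicle libraries with the first and its BI6727 libraries with the second. Pmaip1 was called, with a log2 fold change of 1.76 (95% interval 1.30 to 2.22, adjusted p = 0.000997). The call was lost when either vehicle or either BI6727 library was left out, with log2 fold changes from 1.57 to 1.98. Bmf, with filterByExpr, had a log2 fold change of -2.26 (95% interval -2.78 to -1.75, adjusted p = 0.000256), a fall to 0.209 of its vehicle level. Of all genes that passed the 10 CPM filter, 2.34% were called higher and 2.96% lower, and the filter again kept Pmaip1 and left out Bmf. With filterByExpr 1 of the 10 was called higher and 1 lower, against 2.51% and 3.71%.

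Bcl2l11 passed the p threshold in this comparison without reaching a fold of 2. Its log2 fold change was 0.77 (95% interval 0.43 to 1.11, adjusted p = 0.00923), a 1.70-fold difference, and the adjusted p was 0.0665 to 0.0963 with a vehicle or BI6727 library left out. With the replicate number as a block it was 0.0204, above the threshold. The log2 fold change of Bcl2l1 was -0.31 (95% interval -0.55 to -0.07, adjusted p = 0.0653). Replicates did not overlap in normalized CPM in 8 of the 10 genes, 5 higher and 3 lower. Of the 8 members that passed the 10 CPM filter, 7 were without overlap, against 76.8% of all genes that passed it. In TPM, Mcl1 overlapped and Bbc3 did not, the reverse of normalized CPM.

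The makeup of the BH3-only RNA, as a share of the summed TPM of the 5 BH3-only genes, followed these differences. Pmaip1 made up 4.65% and 6.02% in the vehicle libraries, 17.8% and 18.1% with TGF-β1+DMSO, and 16.1% and 16.2% with TGF-β1+BI6727. Bmf made up 14.4% and 11.2% in vehicle, 4.16% and 2.71% with DMSO, and 2.45% and 2.22% with BI6727. Bcl2l11 made up 7.86% and 6.90% in vehicle, 7.33% and 5.54% with DMSO, and 11.4% and 10.9% with BI6727. The Pmaip1 share was higher in all 4 TGF-β1 libraries than in vehicle, and the Bcl2l11 share was highest in the BI6727 libraries. These shares are descriptions with no test, and an increase in 1 gene lowers the shares of the others.

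The levels were also summed within the 3 classes. The BH3-only sum was 45.8 and 46.3 TPM in vehicle, 58.6 and 52.2 with TGF-β1+DMSO, and 45.3 and 52.3 with TGF-β1+BI6727. The pro-survival sum was 155 and 162 in vehicle, 165 and 131 with DMSO, and 140 and 154 with BI6727. The effector sum was 274 and 268 in vehicle, 303 and 316 with DMSO, and 301 and 302 with BI6727, above vehicle in all 4 TGF-β1 libraries. Its ratio to the pro-survival sum was 1.77 and 1.65 in vehicle, 1.83 and 2.41 with DMSO, and 2.14 and 1.96 with BI6727. Most of the effector sum was Bax. Bak1 was at 59.6 and 66.6 TPM in vehicle, 70.8 and 59.6 with DMSO, and lower with BI6727, at 46.9 and 52.9. With DMSO, Mcl1 had 205 and 207 normalized CPM but 122 and 94.4 TPM. The pro-survival sum and the ratio with DMSO thus depended on the measure, and neither was tested. Likewise, Bak1 and Bid with DMSO lay wholly above vehicle in normalized CPM and overlapped it in TPM. The other sums with DMSO were taken in TPM only.

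**Figure D4:**
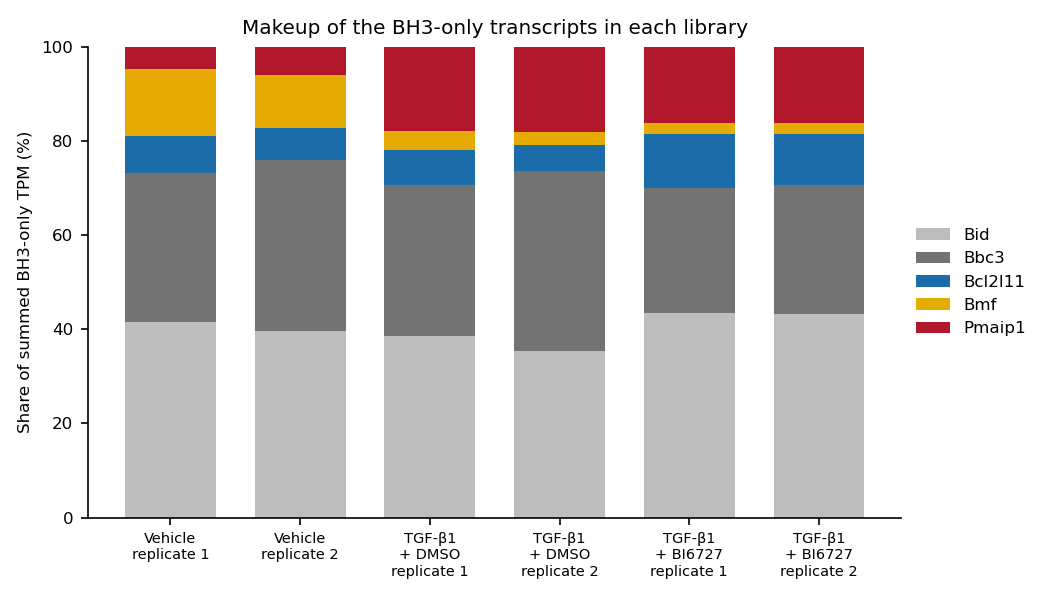
Share of each BH3-only gene in the summed BH3-only TPM of each library, in percent, as stacked bars from 0 to 100. Pmaip1 widens from 4.65% and 6.02% in vehicle to over 16% in each TGF-β1 library, while Bmf narrows from over 11% to under 5%.

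Other genes of the pathway were taken as 6 lists of 67 genes, of which 48 passed the filter. With TGF-β1+DMSO against vehicle 2 of the 48 were called higher and 0 lower, against 2.56% and 2.53% of all genes tested, both among transcription factors known upstream of BH3-only genes with the p53 inhibitors. Mdm2, the ligase that degrades p53 and is itself a p53 target, had a log2 fold change of 1.26 (SE 0.11, adjusted p = 0.000374). Atf3, a stress transcription factor, had 4.26 and 5.05 normalized CPM in vehicle and 16.1 and 27.7 with TGF-β1+DMSO, a log2 fold change of 2.23 (SE 0.28, adjusted p = 0.00175). Like Pmaip1, Atf3 passed the filter with the 4 TGF-β1 libraries and neither vehicle library. Fas, a listed gene that fell, did not pass. The count of list genes called in this fit therefore says nothing of their direction. The median log2 fold change of the list of transcription factors was 0.15, against -0.0045 for all genes. With filterByExpr, which added 1 gene, it was -0.07, so its sign depended on the filter. Of its 10 genes tested 8 were not called, and Trp53 itself was at 218 and 205 normalized CPM in vehicle and 182 and 185 with TGF-β1+DMSO.

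No gene was called in the wider BCL2 family (6 tested of 15), the mitochondrial death machinery and caspases (15 of 18), the inhibitors of apoptosis proteins (5 of 5), the death receptors and their adaptors (6 of 9) or the ligases, deubiquitinase and dynein light chains (6 of 7). Their median log2 fold changes were 0.15, 0.02, -0.28, -0.03 and -0.17 in that order. With filterByExpr, 56 of the 67 were tested, and Bok and Fas were added to the calls, giving 3 higher and 1 lower, against 2.75% and 3.23% of all genes. Bok, an effector-like member, had 71.7 and 77.1 normalized CPM in vehicle, 120 and 203 with TGF-β1+DMSO, and 119 and 114 with BI6727. Its log2 fold change over vehicle was 1.12 (adjusted p = 0.00653, and 0.0117 in the fit of 9518 genes). Fas, the death receptor, fell from 24.9 and 20.7 to 7.97 and 11.6 normalized CPM, a log2 fold change of -1.22 (adjusted p = 0.00399). Of the wider family, Bcl2a1a, Bcl2a1b, Bcl2a1d, Bcl2l10, Hrk and Bcl2l14 had 0 counts in all 6 libraries. With BI6727 against DMSO, none of the 48 genes was called by edgeR. An unadjusted p below 0.05 was found for 4 of the 48, against 636 of all 9518 genes. With filterByExpr it was 3 of the 56, against 1041 of 14604. For BI6727 against vehicle, Mdm2 and Atf3 were called higher again and 0 of the 48 lower, against 2.34% and 2.96% of all genes. This filter again kept Atf3 and left out Fas. With filterByExpr 2 were called higher and 1 lower, the latter among the death receptors and their adaptors, against 2.51% and 3.71%.

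Reads were single-end and 50 bases long, and the strand setting of the counting was not given in the sources used here. Other genes overlapped 12.2% of the exonic bases of Bax (Gm45808, same strand), 14.8% of Bak1 (Ggnbp1, opposite strand), 17.7% of Bid (Bcl2l13, opposite strand) and 6.09% of Bcl2 (D630008O14Rik, opposite strand). Reads from those stretches cannot be assigned with certainty, so these 4 genes are less certain than the rest. No other gene overlapped the exons of Bcl2l1, Mcl1, Bcl2l11, Bmf, Bbc3 or Pmaip1, and of their 50-base windows only 0.135% in Bcl2l11 occurred in another gene. The counts were per gene, so splice forms such as those of Bcl2l1 and Mcl1, whose products differ in function, could not be told apart.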

How the data were processed

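Per the labels and the methods, the authors sequenced rRNA-depleted RNA from 6 libraries of NIH/3T3 cells (50-base single-end reads), mapped the reads to mm10 with Subjunc of Subread 1.6.4, counted them with featureCounts on the Gencode M20 annotation, and deposited raw counts for 54752 genes. Library totals (18362378 to 24452153) limit the precision of low genes. Groups and replicates came from the sample titles.

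From these counts, comparisons used edgeR 4.0.16 in R 4.3.3 (TMM, quasi-likelihood test, 3 residual degrees of freedom, Benjamini-Hochberg adjustment over all genes tested). The SE is the log2 fold change over the square root of F. Normalized CPM used TMM-scaled totals of the filtered genes, and TPM used the table's exonic length. The genes, lists and thresholds were chosen with earlier results of these data known. Named genes were the 10 members, 3 checks (Plk1, Acta2 and Cdkn2a), list genes called in the first or second comparison, cell type markers and genes that overlap a member. Trp53 and the genes at 0 counts were named after their values were seen.

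Alternatives were DESeq2 1.42.0, its size factors, other filters, 2 groups only, a replicate block, length-trend offsets (lowess span 0.3), looser thresholds and each library left out, which leaves 1 library in an arm that is assumed to vary like the others. The fits were tested on simulated data. An exact permutation of 2 against 2 cannot go below p = 0.333 (two-sided), so none was used. Same-numbered replicates are not known to be paired.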

Additional observations from a re-analysis of the deposited data

How the results depend on the processing

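The number of members called with TGF-β1+DMSO against vehicle was 1, and it was 2 with filterByExpr, with 1 CPM as the minimum and with at least 10 counts in total, since Bmf was then tested. Leaving out a library gave 0 to 1. For TGF-β1+BI6727 against vehicle it was 1, and it was 2 under the same 3 filters and 2 at an adjusted p below 0.05 with no fold minimum, with 0 to 1 when a library was left out. List genes called with TGF-β1+DMSO against vehicle went from 2 to 4 with filterByExpr and to 3 with DESeq2. For BI6727 against vehicle they went from 2 to 3 with filterByExpr and stayed at 2 with DESeq2. Of all genes, filterByExpr called 402 higher and 472 lower in the former comparison, and 366 and 542 in the latter. DESeq2 called 269 and 253, and 240 and 300. With the replicate number as a block, 1, 0 and 1 members were called in the 3 comparisons, and no call of a member changed. The adjusted p of Bcl2l11 for BI6727 against vehicle, not called for its fold, went from 0.00923 to 0.0204. Same-numbered deviations correlated across genes at -0.11, 0.05 and -0.26. With 2 libraries per group, these values cannot decide whether same-numbered samples were paired. Signs turned only for differences near 0. For BI6727 against DMSO, Bax was 0.034 with length-trend offsets, and Bid was -0.011 with DESeq2, -0.011 with its size factors and -0.00064 with the replicate block. With a library left out, the log2 fold change of BI6727 over DMSO ranged from -0.27 to 0.24 for Bax, -0.065 to 0.063 for Bid, -0.29 to 0.061 for Bcl2 and -0.054 to 0.0018 for Mcl1. Against vehicle, Bcl2 ranged from -0.16 to 0.17 with DMSO and from -0.29 to 0.046 with BI6727. Over the alternatives of the 30 log2 fold changes, 392 values kept direction and side of the threshold, 7 lost the call and 15 turned sign. Low counts limit Pmaip1 in vehicle and Bmf with BI6727 most.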

Other observations

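The filter of 10 CPM in more than 3 samples treats genes that rose and genes that fell unequally. With 2 libraries per group, a gene at 10 CPM only in both TGF-β1 groups reaches 4 libraries and is tested, as Pmaip1 was. A gene at 10 CPM only in vehicle reaches 2 and is not, as for Bmf. Of the 5086 genes tested with filterByExpr and not with this filter, 409 had at least 10 CPM in both libraries of some group. In TGF-β1+DMSO against vehicle, 15 of these 409 were called higher and 151 lower. All 151 were among the 314 genes that reached 10 CPM in both vehicle libraries and in fewer than 2 others.

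The ratio of Bcl2l11 to Bmf TPM, BH3-only genes that share a dynein light chain binding motif, was 0.547 and 0.618 in vehicle, 1.76 and 2.04 with TGF-β1+DMSO, and 4.68 and 4.90 with TGF-β1+BI6727. The 3 groups were apart. This ratio was chosen after its values were seen, and no test was made.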
